A study of Mus musculus with 10 samples.

Results

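The 10 genes described here carry out antigen presentation in the mouse. They are the class I heavy chains H2-K1 and H2-D1, their light chain B2m, the peptide transporter subunits Tap1 and Tap2, the immunoproteasome subunits Psmb8 and Psmb9, the class II genes Cd74 and H2-DMa, and Cd1d1, which presents lipids. They were picked by symbol from 48526 gene identifiers, with the difference between the groups already known, so that difference is given below as a description with no test. All 10 passed the filter of a mean of at least 10 normalized counts, as did 17007 genes in all. RNA was sequenced from the microdissected dentate gyrus of 10 C57Bl/6 mice, all described as 8 weeks old. In 5 mice the dentate gyrus of each side had received 1 µl of a serotype 9 adeno-associated virus (AAV) that encodes Sox11, and in the other 5 mice the same serotype encoding GFP. Sox11 is a transcription factor of developing neurons. The GFP mice thus share the injection and the virus capsid with the Sox11 mice. No uninjected mice were analysed here, and neither the promoter of the vectors nor the time after injection is known from the labels.

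Class I molecules display short peptides from inside the cell to CD8 T cells. The proteasome makes the peptides, and the immunoproteasome subunits replace constitutive ones when interferon induces them. The transporter encoded by Tap1 and Tap2 carries the peptides into the endoplasmic reticulum, where they are loaded onto a heavy chain paired with beta-2 microglobulin, the B2m product. Class II molecules display peptides from endosomes. The invariant chain Cd74 holds their groove closed, and H2-DM, of which H2-DMa encodes the alpha chain, exchanges the remaining fragment for a peptide. CD1d, a class I-like protein that also pairs with beta-2 microglobulin, presents lipids to natural killer T cells. In healthy brain, class I and class II transcripts are known from endothelium, microglia and the immune cells of brain borders, and many of these genes respond to interferon.

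The deposited values are counts divided by a size factor per library, and the libraries held 45100154 to 68769808 assigned reads. Sox11 itself averaged 12559 ± 4449 normalized counts in Sox11 libraries and 1429 ± 115 in GFP libraries (SD, n = 5 each), and reads from the vector and from the endogenous gene cannot be told apart. The table's columns are numbered 1, 2, 3, 6 and 7 for Sox11 and 1, 3, 4, 5 and 6 for GFP, and libraries are named here by those numbers. GFP 3 stood apart with 345861 normalized counts of the choroid plexus gene Ttr, against 34.9 to 1312 in the other 9 libraries. Meningeal and fibroblast markers summed to 2652 to 19651 normalized counts in Sox11 libraries and to 2132 to 36940 in GFP libraries, with Sox11 2, Sox11 3, GFP 1 and GFP 3 highest. Granule neuron markers, which check the labelled tissue, summed to 56761 to 81263 in Sox11 libraries and to 51389 to 74711 in GFP libraries. Of these 5 markers, 1 was past an adjusted p of 0.05 in limma as higher and 1 as lower. The shares over all genes tested were 9.65% and 9.36%. Their ratios of means, Sox11 over GFP, ran from 0.74 for C1ql2 to 1.36 for Rfx3. In bulk tissue, fewer cells of a type and less RNA per cell cannot be told apart.

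Cd1d1 was far higher in Sox11 libraries, Tap1 was higher by a smaller factor, and H2-DMa was lower. The other 7 genes lay between a log2 difference of 0.15 for Tap2 and of 1.71 for Cd74, with overlapping groups. Of the 10 genes, 2 were past an adjusted p of 0.05 in limma as higher, against 9.65% of all genes tested, and 1 was past it as lower, against 9.36%. The groups did not overlap for Cd1d1, higher in Sox11, where the share over all genes was 8.63%, and for H2-DMa, lower in Sox11, where it was 7.29%. The median log2 fold change was 0.55 over the 10 genes and -0.01 over all genes tested. Because the choice of the genes used this comparison, nothing is read from these counts. Without GFP 3, 4 of the genes were past the threshold as higher, with H2-D1 and Psmb8 added to Cd1d1 and Tap1. With any library left out other than GFP 1, GFP 3 or Sox11 6, the count was 1, Cd1d1.

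**Figure D1:**
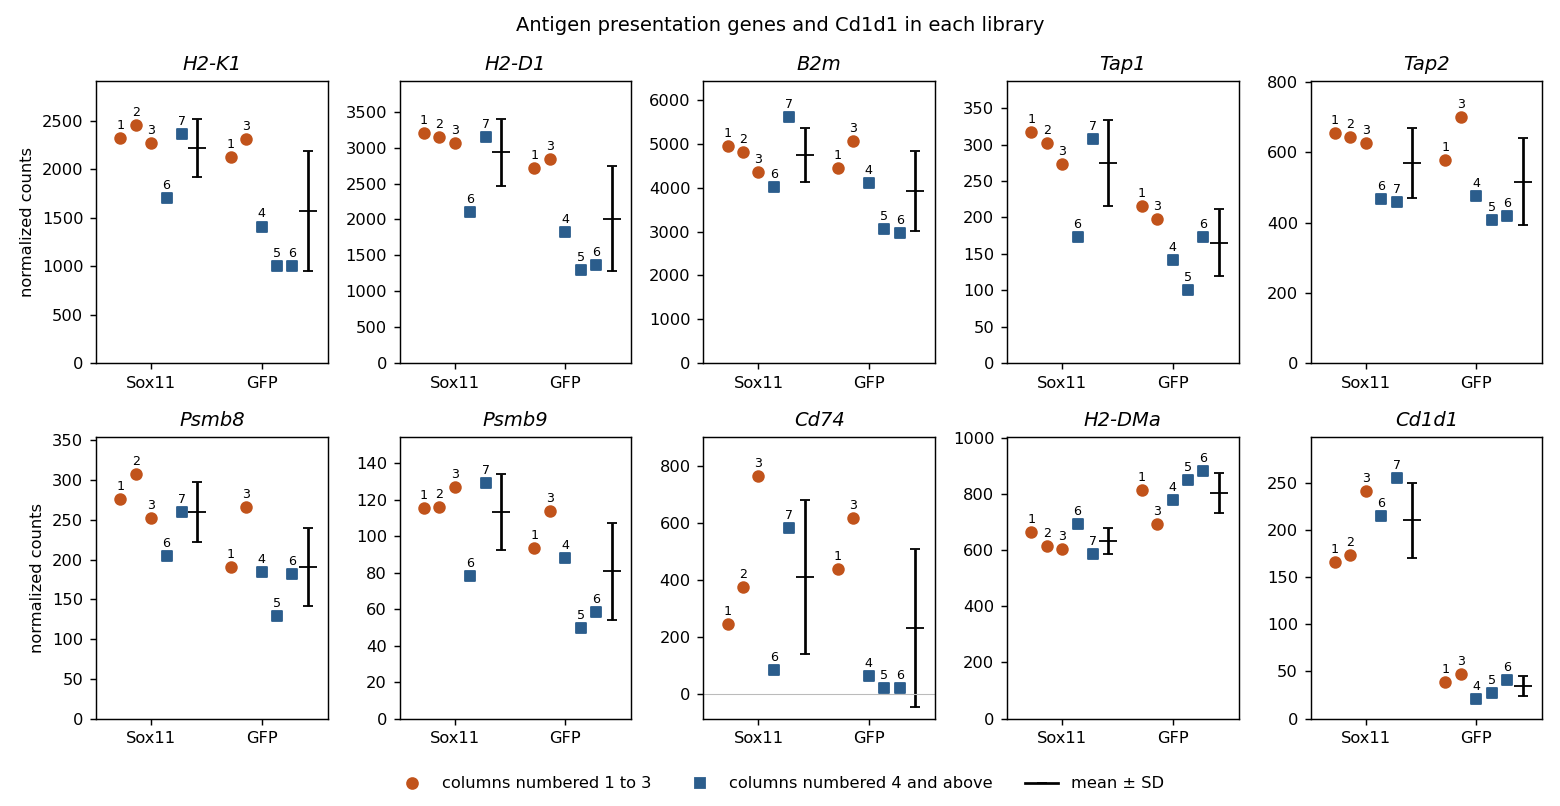
Normalized counts of each of the 10 genes (y axis from each panel's own scale) in the 5 Sox11 and 5 GFP libraries. Points carry the number of the library's column, circles mark columns numbered 1 to 3, squares mark columns numbered 4 and above, and bars give mean ± SD. Cd1d1 lies at 166 to 255 in Sox11 libraries and at 20.9 to 47.2 in GFP libraries, while the Cd74 values of the groups overlap widely.

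Compared per kilobase of exon, B2m was the most abundant of the 10 transcripts, at 5531 ± 710 normalized counts per kilobase in Sox11 libraries and 4574 ± 1055 in GFP libraries (SD, n = 5 each). H2-D1 followed at 1138 ± 181 per kilobase in Sox11 libraries and 780 ± 284 in GFP libraries, then H2-K1 at 756 ± 101 in Sox11 libraries and 534 ± 210 in GFP libraries. The ranges of H2-D1 and H2-K1 overlapped in each group, whereas B2m lay above H2-D1 in all libraries of each group. In Sox11 libraries the order went on with Cd74, H2-DMa, Tap2, Cd1d1, Psmb8, Tap1 and Psmb9, and in GFP libraries with H2-DMa, Cd74, Tap2, Psmb8, Tap1, Psmb9 and Cd1d1. Cd1d1 was thus 7th in Sox11 libraries, at 81.7 ± 15.4 per kilobase, and 10th in GFP libraries, at 13.6 ± 4.12. Among these later neighbours, ranges were apart between Tap2 and Cd1d1 and between Psmb8 and Tap1 in Sox11 libraries, and between Tap2 and Psmb8 in GFP libraries. H2-K1 was apart from the gene after it in each group, and all other neighbours overlapped. With the length of the longest transcript in place of all exons, H2-DMa preceded Cd74, and Psmb8 preceded Cd1d1, in Sox11 libraries.

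The class I heavy chains were high in all Sox11 libraries but number 6, and in GFP 1 and GFP 3. H2-K1 (chr17:33996017-34000347, minus strand, GRCm38) had 2316, 2452, 2270, 1702 and 2362 normalized counts in Sox11 1, 2, 3, 6 and 7. It had 2124, 2307, 1408, 1000.3 and 1001 in GFP 1, 3, 4, 5 and 6. GFP 1 and GFP 3 therefore lay among the Sox11 values, and the log2 fold change was 0.58 (SE 0.25). H2-D1 (chr17:35262730-35267499, plus strand) showed the same libraries as high, with 3206, 3148, 3069, 2105 and 3145 in Sox11 libraries against 2711, 2848, 1829, 1298 and 1368 in GFP libraries. Its log2 fold change was 0.61 (SE 0.24). B2m (chr2:122147686-122153083, plus strand) averaged 4756 ± 610 in Sox11 libraries and 3934 ± 908 in GFP libraries, a log2 fold change of 0.30 (SE 0.15). GFP 3, at 5076, was above every Sox11 library but number 7. The heavy chains are near copies of each other and of other class I genes. Of 31-base words, 77.2% in H2-K1 and 73.3% in H2-D1 occur in no other annotated gene, so some reads could have been dropped or shared.

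The promoter windows of the class I genes are shown because the choice of the genes used no sequence. The motifs searched include sites of known regulators of antigen presentation genes. Their matches in these genes are therefore a description and not independent evidence. They come from RefSeq, span 250 bases before to 50 after a transcript start in GRCm38.p6, and are written in the direction of the gene. Capitals mark, on either strand, the kappa B palindrome GGGNNNNNCCC, the interferon regulatory factor core AANNGAAA, the cyclic AMP response element core TGACG and the CCAAT box.
H2-K1: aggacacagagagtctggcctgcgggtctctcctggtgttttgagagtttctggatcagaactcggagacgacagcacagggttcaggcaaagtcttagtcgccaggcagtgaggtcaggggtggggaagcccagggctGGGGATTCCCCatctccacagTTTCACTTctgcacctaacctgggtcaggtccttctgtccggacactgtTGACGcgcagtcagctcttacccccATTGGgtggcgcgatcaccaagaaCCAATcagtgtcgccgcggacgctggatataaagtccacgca
H2-D1: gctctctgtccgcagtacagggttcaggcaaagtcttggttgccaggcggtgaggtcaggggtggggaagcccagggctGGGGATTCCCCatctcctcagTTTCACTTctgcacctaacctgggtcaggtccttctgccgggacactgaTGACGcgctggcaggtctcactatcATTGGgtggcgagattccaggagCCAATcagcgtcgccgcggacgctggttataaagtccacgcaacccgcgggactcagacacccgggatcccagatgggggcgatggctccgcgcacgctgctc
B2m: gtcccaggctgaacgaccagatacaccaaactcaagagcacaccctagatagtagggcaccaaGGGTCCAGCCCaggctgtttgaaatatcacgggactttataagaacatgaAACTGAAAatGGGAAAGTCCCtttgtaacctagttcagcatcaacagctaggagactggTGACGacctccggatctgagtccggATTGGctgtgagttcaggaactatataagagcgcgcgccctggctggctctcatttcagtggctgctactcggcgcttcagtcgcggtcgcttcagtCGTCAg
Tap1: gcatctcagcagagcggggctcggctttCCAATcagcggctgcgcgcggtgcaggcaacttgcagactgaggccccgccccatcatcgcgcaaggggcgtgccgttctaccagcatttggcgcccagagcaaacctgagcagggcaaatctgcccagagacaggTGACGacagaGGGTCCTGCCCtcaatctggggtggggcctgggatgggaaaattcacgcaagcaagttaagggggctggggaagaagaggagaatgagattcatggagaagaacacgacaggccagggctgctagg
These windows are H2-K1 at chr17:34000298-34000597, H2-D1 at chr17:35262844-35263143, B2m at chr2:122147437-122147736 and Tap1 at chr17:34187306-34187605. H2-K1 and H2-D1 hold the same kappa B and interferon regulatory factor letters, GGGGATTCCCC and TTTCACTT, followed by TGACG and a pair of CCAAT boxes in the same order. B2m has the interferon regulatory factor core AACTGAAA between a pair of kappa B matches. The Tap1 window holds a CCAAT box, TGACG and GGGTCCTGCCC, but not the AANNGAAA letters.

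Of the 10 genes, 7 have entries in this promoter table, in 9 windows out of 32851. Tap2, Cd74 and Cd1d1 were not matched. A gene was counted where any of its windows held a match, whereas the shares given are per window, so the measures are not alike. H2-K1 and H2-DMa have a pair of windows each, and the H2-DMa matches all lie in a single window. The kappa B palindrome was found in 5 of the 7, namely H2-K1, H2-D1, B2m, Tap1 and Psmb9, and in 14.0% of all windows. The interferon regulatory factor core was found in 4, namely H2-K1, H2-D1, B2m and H2-DMa, and in 23.9% of all windows. In H2-DMa it lies inside a run of T bases. TGACG was found in the same 5 genes as the kappa B palindrome and in 20.8% of windows, and the CCAAT box in all of the 7 but Psmb8 and in 37.4% of windows. The Tap1 and Psmb9 windows face away from each other and share 275 bases, so their matches are largely the same letters. Cores of SOX family sites were searched as well. ACAAAG was found in B2m and H2-DMa and in 18.7% of windows, and ACAATG in none of the 7 genes and in 12.6% of windows. The 4 capitalised motifs did not overlap in these windows, whereas the ACAAAG match of B2m shares a base with a kappa B match. A match describes letters and is not evidence of binding.

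**Figure D2:**
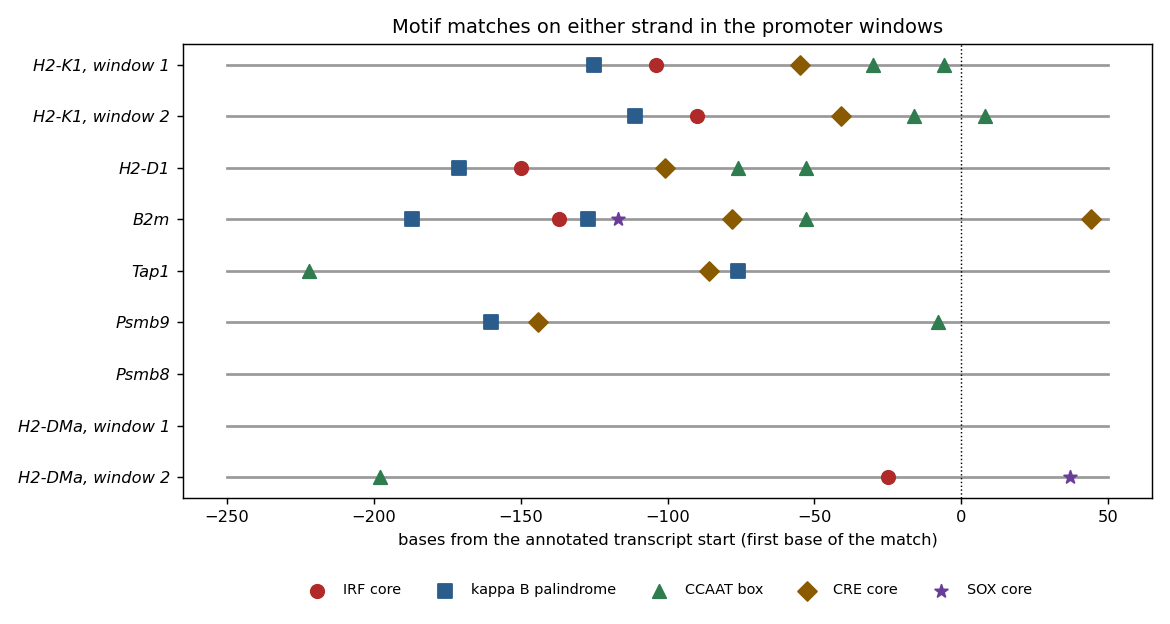
Motif matches in the 9 RefSeq promoter windows of 7 of the genes, by distance in bases from the annotated transcript start (dotted line); symbols mark the kind of motif and grey lines the 300 bases searched. H2-K1, H2-D1 and B2m hold the kappa B, IRF, CRE and CCAAT letters in 1 window, while the Psmb8 window and the first H2-DMa window hold no match.

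The transporter and immunoproteasome genes Tap1, Tap2, Psmb8 and Psmb9 sit side by side in the class II region of chromosome 17. Tap1 (chr17:34187553-34197225) had 318, 303, 274, 173 and 307 normalized counts in Sox11 1, 2, 3, 6 and 7, against 215, 198, 142, 99.6 and 172 in GFP 1, 3, 4, 5 and 6. Only Sox11 6 lay within the GFP range, and the log2 fold change was 0.75 (SE 0.23). Tap2 (chr17:34203527-34216321), its partner in the transporter, averaged 570 ± 98.6 in Sox11 libraries and 517 ± 124 in GFP libraries, with GFP 3 highest of all at 701. Psmb8 (chr17:34197721-34201454) averaged 260 ± 37.7 in Sox11 libraries and 190 ± 49.0 in GFP libraries, a log2 fold change of 0.47 (SE 0.17). GFP 3, at 266, was the GFP library inside the Sox11 range of 205 to 308, and without it the groups did not overlap, with a log2 fold change of 0.60. Psmb9 (chr17:34181987-34187764) averaged 113 ± 20.6 in Sox11 libraries and 80.7 ± 26.4 in GFP libraries, with Sox11 6 at 77.9 below 3 of the GFP libraries. Exons of genes on the other strand cover 18.5% of Tap2, 14.7% of Psmb8, 5.79% of Psmb9 and 3.87% of Tap1. The kit keeps strand, but no source used here gives the counting setting, so reads of opposite genes might be included, or reads in shared stretches dropped. The gene opposite Psmb8 and Tap2, Gm20496, had 0 normalized counts in all libraries. Gm15821, also opposite Tap2, had at most 3.80. The effect on these values was not tested.

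The class II genes behaved unlike each other. Cd74 (chr18:60803848-60812652) had 245, 375, 765, 84.0 and 582 normalized counts in Sox11 1, 2, 3, 6 and 7, against 440, 616, 63.8, 23.4 and 20.8 in GFP 1, 3, 4, 5 and 6. Each group held high and low libraries, and the log2 fold change of 1.71 had an SE of 1.08. On whole reads recovered from the table, the Cd74 log2 fold change was 0.83 in edgeR, 0.82 in DESeq2 and 1.82 in limma-voom. H2-DMa (chr17:34119541-34139101) had 664, 615, 603, 694 and 585 in Sox11 libraries, against 813, 695, 779, 849 and 882 in GFP libraries. The groups touched but did not overlap, with Sox11 6 highest in the Sox11 group and GFP 3 lowest in the GFP group, and the log2 fold change was -0.34 (SE 0.08). H2-DMb1, the beta chain that pairs with the H2-DMa product, was far lower per kilobase, at 32.9 ± 12.3 in Sox11 libraries and 42.5 ± 21.7 in GFP libraries. H2-DMa stood at 183 ± 13.1 per kilobase in Sox11 libraries and 233 ± 20.9 in GFP libraries. Brd2, a chromatin reader gene on the opposite strand, covers 10.4% of H2-DMa exons. Brd2 averaged 14203 ± 270 normalized counts in Sox11 libraries and 13346 ± 561 in GFP libraries, a log2 fold change of 0.09, the opposite sign to H2-DMa. H2-DMb1 and Brd2 are named here after their values were seen, and the part of Brd2 reads in the H2-DMa value was not tested.

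Cd1d1 (chr3:86995834-86999441, minus strand) had the widest separation of the 10 genes. It had 166, 174, 241, 214 and 255 normalized counts in Sox11 1, 2, 3, 6 and 7, against 38.7, 47.2, 20.9, 27.4 and 40.5 in GFP 1, 3, 4, 5 and 6. The lowest Sox11 library was above the highest GFP library, and the log2 fold change was 2.59 (SE 0.22), a ratio of means of 6.01. As recovered reads, these values were 175 to 317 in Sox11 libraries and 19 to 41 in GFP libraries. Cd1d1 ranked 19th of the 17007 genes by log2 fold change. It ranked 7th when genes with overlapping groups, a mean under 50 or no call were set aside. A larger pseudocount of 8 gave a log2 fold change of 2.36, and leaving out each library in turn gave 2.42 to 2.71.

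A near copy, Cd1d2, lies beside Cd1d1 on chromosome 3 and is annotated as a pseudogene in this mouse strain. The first 120 coding bases of Cd1d1 and the matching bases of Cd1d2 (GENCODE, GRCm38) are shown because reads of the 2 genes differ in this stretch only where the capitals stand.
Cd1d1: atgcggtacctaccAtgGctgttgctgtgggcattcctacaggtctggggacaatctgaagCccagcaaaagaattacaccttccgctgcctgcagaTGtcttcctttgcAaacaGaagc
Cd1d2: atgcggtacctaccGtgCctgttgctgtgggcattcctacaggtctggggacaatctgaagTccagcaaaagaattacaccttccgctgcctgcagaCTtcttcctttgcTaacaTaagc
They differ at 7 of these 120 bases. Over 960 aligned coding bases identity was 94.5%, and the longest identical run in the transcripts was 245 bases. Of the 31-base words of Cd1d1, 75.2% occur in no other annotated gene and 24.2% also occur in Cd1d2. Cd1d2 had 0 reads in all 10 libraries, which allows up to 3 counts in each and covers counting error only. Whether reads from shared words were dropped is not given in the labels.

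The neighbours of Cd1d1 on the chromosome showed no change of like size. Dclk2, a microtubule-associated kinase gene, averaged 6342 ± 383 normalized counts in Sox11 libraries and 5626 ± 277 in GFP libraries, a log2 fold change of 0.17 (limma, adjusted p = 0.0388). Kirrel, an adhesion molecule gene, averaged 321 ± 101 and 403 ± 231 in Sox11 and GFP libraries (log2 fold change -0.20, limma adjusted p = 0.785). Beyond them, Fcrls, a microglial gene, averaged 1634 ± 90.1 in Sox11 libraries and 1494 ± 149 in GFP libraries (limma adjusted p = 0.222), and Mab21l2 was near the filter with up to 84.1 normalized counts in a library. Over the 10 libraries on the log2 scale, the genes whose pattern was most like Cd1d1 included Efna4, Smpd2, Map3k9 and Dact1, each with a Pearson correlation of 0.99. That likeness is largely the group difference. Efna4, an ephrin ligand gene, had 181 ± 34.0 normalized counts in Sox11 libraries and 30.3 ± 8.90 in GFP libraries. With the group means taken out, the closest were Tdrd7 and Slc38a10 at 0.90, Gm16565 and Amer1 at 0.89 and Gm19265 at 0.88. The other genes described here correlated with Cd1d1 at 0.31 to 0.76 over the 10 libraries, and H2-DMa at -0.86. With group means removed this became 0.17 to 0.46, and -0.30 for H2-DMa.

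For the class I genes and Cd74 the difference was small or reversed in one range of column numbers and large in the other, while Cd1d1 differed strongly in each. The labels do not say what the numbers stand for. Columns 1 to 3 hold 3 Sox11 and 2 GFP libraries, and those numbered 4 and above hold 2 Sox11 and 3 GFP libraries. For H2-K1 the log2 difference was 0.08 in columns 1 to 3 and 0.84 in columns 4 and above. For H2-D1 it was 0.18 and 0.80, and for B2m -0.01 and 0.51, in the same order. For Cd74 the sign differed, with -0.33 in columns 1 to 3 and 2.78 in columns 4 and above. Tap1 was closer, at 0.52 and 0.77, as were Psmb8 at 0.30 and 0.50 and Psmb9 at 0.21 and 0.65, while Tap2 stayed near 0 with 0.01 and 0.09. H2-DMa was lower in each set of columns, with log2 differences of -0.26 and -0.39. Cd1d1 was higher in each, with 2.13 and 2.99. The groups did not overlap in either set for Cd1d1, nor for H2-D1, Tap1 and H2-DMa. With 2 or 3 libraries per group a lack of overlap is a weak criterion, and its share over all genes was not computed for these sets. Over all genes, 5.96% passed the threshold in columns 1 to 3 and 15.2% in columns 4 and above. The difference between the sets of columns was not tested. The H2-K1 values of GFP 1 and GFP 3, the GFP libraries of columns 1 to 3, were above those of the other 3 GFP libraries. The endothelium markers of GFP 1 and GFP 3 summed to 13204 and 16290, against 8258 to 12119 in those 3. Border macrophage markers summed to 1281 and 2208, against 265 to 705. Meningeal and fibroblast markers summed to 21448 and 36940, against 2132 to 6072. Among Sox11 libraries, meningeal sums were 4334 and 3449 in numbers 1 and 7, against 19651 and 17256 in numbers 2 and 3. Border macrophage sums were 409 and 412, against 1390 and 1267, in the same order. H2-K1 was 2316 and 2362, against 2452 and 2270. Sox11 6 had a meningeal sum of 2652 and an H2-K1 value of 1702, each the lowest of its group. Endothelium sums ran from 9713 in Sox11 7 to 13855 in Sox11 2. The part of these markers in the result was not tested.

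**Figure D3:**
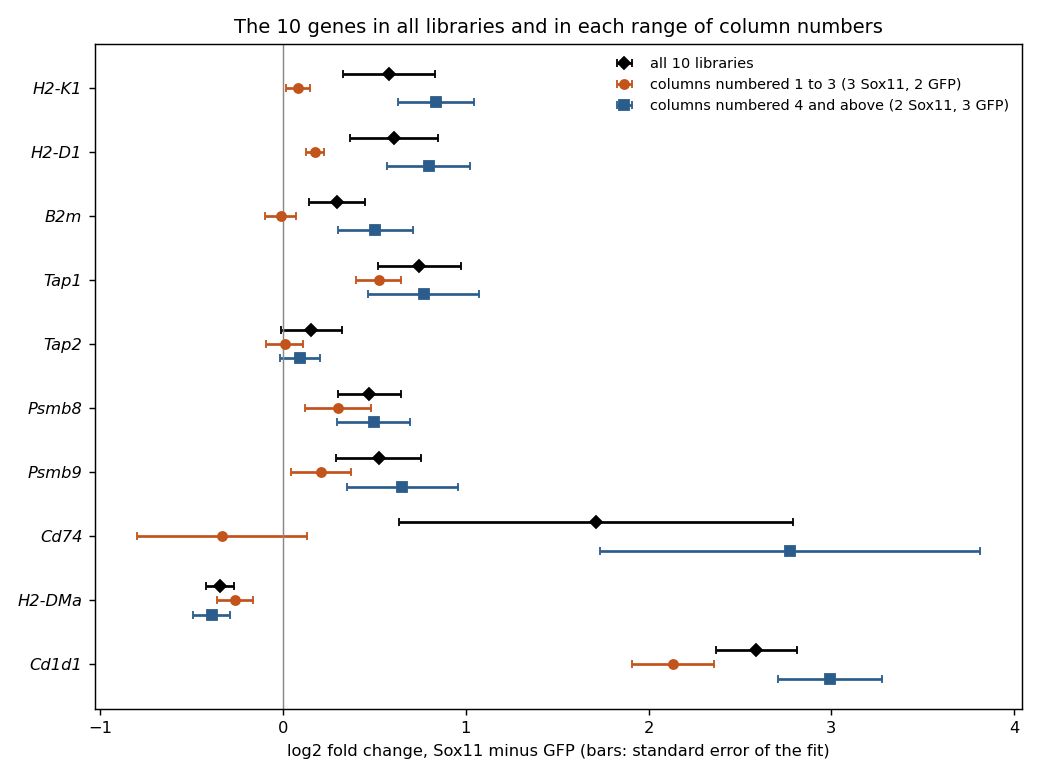
Log2 fold change of each gene (Sox11 minus GFP, x axis) in all 10 libraries (black diamonds), in columns numbered 1 to 3 (orange circles) and in columns numbered 4 and above (blue squares), with bars for the standard error. H2-K1 lies at 0.08 in columns 1 to 3 and at 0.84 in the others, whereas Cd1d1 lies at 2.13 and 2.99 and H2-DMa at -0.26 and -0.39.

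Within the groups, the class I, transporter, proteasome and Cd74 levels varied together, and the relation with Cd1d1 did not pass the test. After the group means were taken out, log2 values of H2-K1 over the 10 libraries correlated with H2-D1 at r = 0.99 (Spearman correlation 0.96). The exact permutation test within groups gave an adjusted p of 0.00826 for r and 0.0112 for the Spearman correlation. The values for r were 0.96 for Cd74, 0.92 for B2m and Psmb9, 0.83 for Tap2, 0.80 for Psmb8 and 0.75 for Tap1. Their adjusted p by the same exact test, over 14 relations computed, ran from 0.00486 to 0.0218, and those of the Spearman correlation (0.76 to 0.90) from 0.00583 to 0.0461. H2-DMa ran the other way, at r = -0.75 (exact permutation, adjusted p = 0.0228) and Spearman correlation -0.68 (exact permutation, adjusted p = 0.0656). For Cd1d1 r was 0.32 (exact permutation, adjusted p = 0.510) and the Spearman correlation 0.38 (exact permutation, adjusted p = 0.390). Without GFP 5 and GFP 6, the libraries farthest from the median, r was 0.99 for H2-D1, 0.93 for Cd74, 0.84 for B2m, -0.63 for H2-DMa and 0.48 for Cd1d1. With the means of each group within each set of column numbers removed, r was 0.97 for H2-D1, 0.97 for B2m, 0.94 for Psmb9 and 0.81 for Cd74. It was then 0.52 for Tap1, -0.79 for H2-DMa and -0.36 for Cd1d1. In that form no relation was below an adjusted p of 0.05 by the exact permutation test (0.122 to 0.542, 144 permutations).

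Several summed lists varied with H2-K1 in the same way. With the group means removed, r was 0.88 for interferon-induced genes, 0.88 for endothelium, 0.86 for border macrophages, 0.83 for meninges and fibroblasts and 0.09 for microglia. By the exact permutation test the adjusted p was 0.00832 for interferon-induced genes, border macrophages and meninges, 0.0185 for endothelium and 0.806 for microglia. The Spearman correlation was 0.82, 0.82, 0.84, 0.82 and 0.16 in the same order, with adjusted p by exact permutation of 0.0267 to 0.0411 for the first 4 and 0.677 for microglia. Without GFP 5 and GFP 6, r was 0.82, 0.76, 0.76, 0.77 and -0.14 in that order. Within the sets of columns, r was 0.67 for interferon-induced genes, 0.66 for endothelium, 0.66 for border macrophages, 0.46 for meninges and 0.69 for microglia. Border macrophage markers, all 7 of which were tested with none past the threshold, summed to 272 to 1390 normalized counts in Sox11 libraries and to 265 to 2208 in GFP libraries. Endothelial markers, with none of 8 past the threshold, summed to 9713 to 13855 in Sox11 libraries and to 8258 to 16290 in GFP libraries. Microglial markers summed to 24305 to 29776 in Sox11 libraries and to 24556 to 29668 in GFP libraries, with 2 of 10 genes past the threshold as higher, C1qb and C1qc. The other microglial markers did not pass, with ratios of means from 0.85 for P2ry12 to 1.19 for C1qa. For these marker counts, the shares over all genes tested were 9.65% higher and 9.36% lower. Markers of general leukocytes summed to 6844 to 8323 in Sox11 libraries and to 5714 to 6926 in GFP libraries, with Cd52 and Laptm5 past the threshold as higher among the 4. The groups overlapped for Laptm5. Markers of B cells summed to at most 43.3 and 40.6 in Sox11 and GFP libraries, and those of monocytes and neutrophils to at most 73.6 and 59.9, with the neutrophil marker Ly6g at 0 in all. Of 7 dendritic cell markers 4 were tested, with Itgax past the threshold as higher and Flt3 as lower, and their sum was 986 to 1037 in Sox11 libraries and 1011 to 1190 in GFP libraries. Itgax averaged 46.9 ± 17.3 normalized counts in Sox11 libraries and 16.9 ± 6.97 in GFP libraries, with no overlap. The defining markers Xcr1 and Clec9a averaged under 1 normalized count in each group. Of 14 T and NK cell markers 4 were tested with none past the threshold, and their sum was 3570 to 3897 in Sox11 libraries and 2889 to 3898 in GFP libraries, nearly all of it Zbtb16. Cd8a, too low for the filter, averaged 11.0 ± 1.34 in Sox11 libraries and 2.91 ± 2.62 in GFP libraries, with no overlap. Over all genes tested, 8.63% had no overlap with Sox11 higher. Cd3e averaged 7.12 ± 4.25 and 3.64 ± 4.17 in Sox11 and GFP libraries. Trac, at 39.7 ± 9.07 and 40.5 ± 10.5 in Sox11 and GFP libraries, did not follow. Gzma and Gzmb also averaged lower in Sox11 libraries, at a few counts, and the other markers of the list averaged higher. The part of these cells in the levels of the genes described was not tested.

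**Figure D4:**
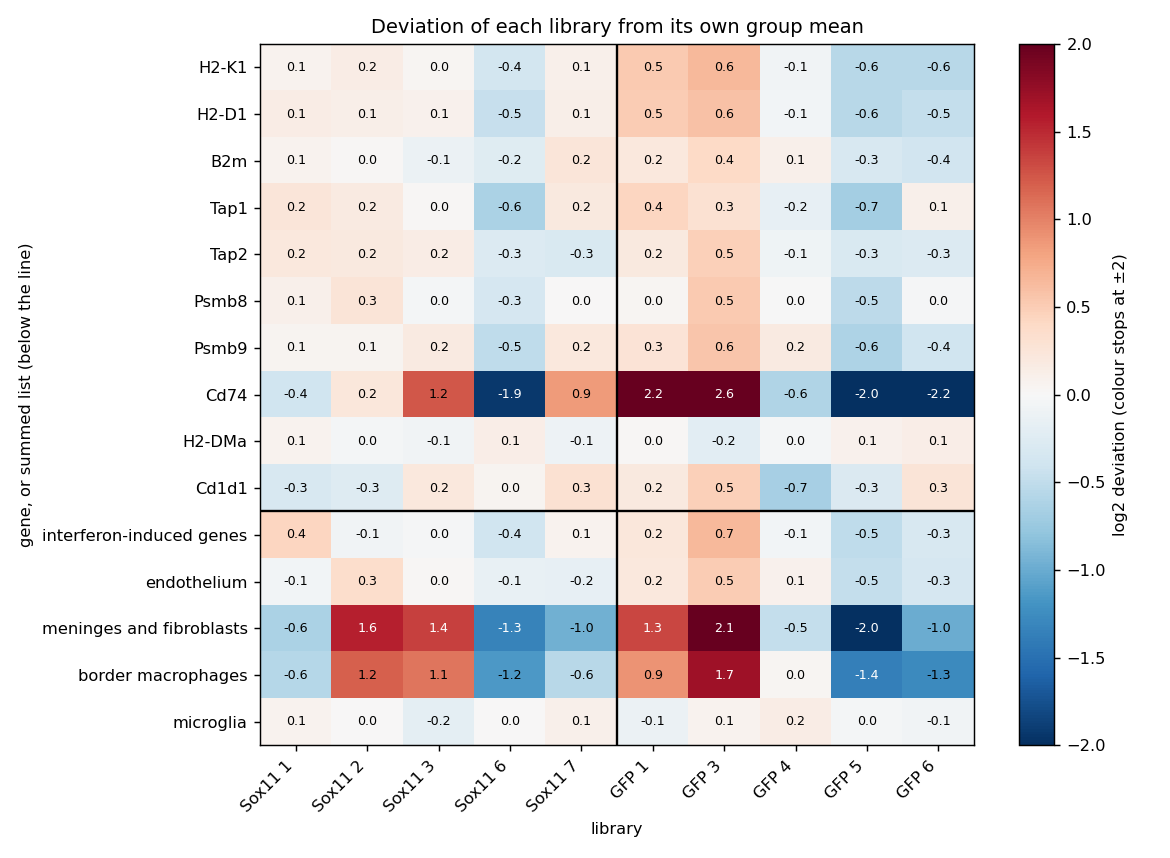
Log2 deviation of each library (columns of the grid, 5 Sox11 and then 5 GFP) from its own group's mean, for the 10 genes above the line and for 5 summed lists below it, with the value in each cell. H2-K1, H2-D1 and Cd74 are low in Sox11 6, GFP 5 and GFP 6 and high in GFP 1 and GFP 3, while Cd1d1 is lowest in GFP 4.

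Among the other genes of the same pathways, those that passed the test were 3 chaperones of peptide loading, 1 gene of CD1d trafficking, 4 regulators and 9 interferon-induced genes. All lists were chosen with earlier results of these data known, so the counts here and below are a description and not independent evidence. Of 12 other class I genes tested, limma found 0 past the threshold in either direction, with 2 higher and 0 lower at an unadjusted p under 0.05. edgeR and DESeq2 also found 0, and limma-voom found 1, H2-T23. The median log2 fold change of the 12 was 0.51, against -0.01 over all genes, and 10 of the 12 were above 0. In columns 1 to 3 that median was 0.07, with 0 of the 12 past the threshold. In columns 4 and above it was 0.62, with 3 of 12 past the threshold as higher, where 7.27% of all genes were. With a block over the 3 column numbers that the groups share it was 0.13, with 8 of the 12 above 0. H2-T23, which encodes the nonclassical molecule Qa-1, averaged 589 ± 98.3 normalized counts in Sox11 libraries and 369 ± 167 in GFP libraries (log2 fold change 0.77, limma adjusted p = 0.0838). It was past the threshold without GFP 1 or without GFP 3, where its log2 fold change was 0.93 and 0.95. H2-Q2 averaged 16.4 ± 5.07 in Sox11 libraries and 8.12 ± 7.73 in GFP libraries (limma adjusted p = 0.103), and H2-Q4 averaged 425 ± 80.9 in Sox11 libraries and 278 ± 156 in GFP libraries (limma adjusted p = 0.176). Without GFP 1, H2-Q2 had an adjusted p of 0.0166 in limma. Such genes share much sequence, with 67.8% of H2-Q2 and 61.6% of H2-Q4 words found in no other gene.

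The peptide-loading chaperones were lower in Sox11 libraries while Tap1 was higher. Of 6 other genes of transport and loading, limma found 3 lower, where 9.36% of all genes were lower, and 0 higher, with 0 higher at an unadjusted p under 0.05. edgeR, limma-voom and DESeq2 also found these 3 lower and 0 higher, where they called 8.96%, 8.83% and 12% of all genes lower. None of the 6 had a log2 fold change above 0. In 7 of the alternatives 1 of the 6 was above 0, namely under TMM scaling, with limma-voom, in columns 4 and above, and without GFP 1, GFP 3, Sox11 6 or Sox11 7. Calr, the calreticulin gene, averaged 13036 ± 901 normalized counts in Sox11 libraries and 16850 ± 773 in GFP libraries (log2 fold change -0.37, limma adjusted p = 0.00116). Canx, which encodes calnexin, averaged 17195 ± 649 in Sox11 libraries and 20256 ± 1257 in GFP libraries (-0.24, limma adjusted p = 0.00874). Pdia3, an oxidoreductase of the loading complex, averaged 10262 ± 560 in Sox11 libraries and 12004 ± 1035 in GFP libraries (-0.22, limma adjusted p = 0.0303). For each of these 3 the groups did not overlap. All 3 serve the folding of many glycoproteins and are not specific to class I. Pdia3 missed the threshold, with an adjusted p in limma of up to 0.0745, when GFP 4 or a Sox11 library of columns 1 to 3 was left out. Tapbp, which encodes tapasin, the bridge between transporter and heavy chain, and is named after its values were seen, averaged 1403 ± 270 in Sox11 libraries and 1434 ± 432 in GFP libraries (limma adjusted p = 0.998).

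No proteasome gene of these lists, Psmb8 and Psmb9 included, was past the threshold in limma over all 10 libraries. Of 3 other immunoproteasome genes, 0 passed, with 0 at an unadjusted p under 0.05, and edgeR, DESeq2 and limma-voom also gave 0. Psmb10, the remaining interferon-induced catalytic subunit, averaged 1132 ± 159 normalized counts in Sox11 libraries and 1063 ± 67.7 in GFP libraries. The activator subunits Psme1 and Psme2 had log2 fold changes of 0.03 and -0.10. Of 7 constitutive beta subunits, 0 passed in limma, with 1 higher and 1 lower at an unadjusted p under 0.05. DESeq2 found Psmb1 lower and edgeR and limma-voom found 0. Psmb5, the constitutive counterpart of Psmb8, averaged 1926 ± 143 in Sox11 libraries and 2149 ± 135 in GFP libraries (limma adjusted p = 0.101), with 28.3% of its words found in no other gene. Psmb6, the counterpart of Psmb9, averaged 4878 ± 189 in Sox11 libraries and 4539 ± 217 in GFP libraries (limma adjusted p = 0.137).

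Of 8 other class II genes, limma found 0 past the threshold, with 0 at an unadjusted p under 0.05, and edgeR, DESeq2 and limma-voom also found 0. The chains H2-Aa and H2-Ab1 spread as widely as Cd74. H2-Aa had 63.3, 123, 427, 32.9 and 193 normalized counts in Sox11 1, 2, 3, 6 and 7, against 189, 379, 18.7, 14.2 and 4.15 in GFP 1, 3, 4, 5 and 6. GFP 1 and GFP 3 again lay among the Sox11 libraries. H2-Ab1 averaged 160 ± 129 in Sox11 libraries and 105 ± 124 in GFP libraries (limma adjusted p = 0.479). Ifi30, a thiol reductase of endosomes, averaged 147 ± 33.5 in Sox11 libraries and 123 ± 58.9 in GFP libraries (limma adjusted p = 0.493).

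Genes that load lipids on CD1d or sort it to endosomes did not follow Cd1d1. Of 9 tested, limma found 1 lower, a share near the 9.36% of all genes, and 0 higher, with 0 higher at an unadjusted p under 0.05. edgeR and limma-voom found 0 in either direction, and DESeq2 found 2 lower, Ap3s1 and Psap. Ap3s1, a subunit of the AP-3 adaptor that carries CD1d to lysosomes, averaged 1314 ± 97.1 normalized counts in Sox11 libraries and 1539 ± 142 in GFP libraries (log2 fold change -0.23, limma adjusted p = 0.0448). That call was also lost when any library other than GFP 1, Sox11 1 or Sox11 7 was left out. Psap, the precursor of the lipid-loading saposins, averaged 78087 ± 3061 in Sox11 libraries and 84135 ± 3003 in GFP libraries (limma adjusted p = 0.160). Npc2, a lipid transfer protein of lysosomes, averaged 3378 ± 95.7 in Sox11 libraries and 2932 ± 585 in GFP libraries (limma adjusted p = 0.176). Without GFP 3 the Npc2 log2 fold change was 0.33 (limma adjusted p = 0.00292).

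Among 23 regulators of antigen presentation genes, limma found 2 higher and 2 lower, shares near those over all genes of 9.65% higher and 9.36% lower. Nfya, a subunit of the factor that binds CCAAT boxes, averaged 1969 ± 178 normalized counts in Sox11 libraries and 1449 ± 87.6 in GFP libraries (log2 fold change 0.44, limma adjusted p = 0.00122). Ifnar1, a subunit of the type I interferon receptor, averaged 2756 ± 143 in Sox11 libraries and 2398 ± 76.0 in GFP libraries (0.20, limma adjusted p = 0.0111). Irf2, a factor that competes with Irf1, averaged 1041 ± 86.5 in Sox11 libraries and 1285 ± 47.0 in GFP libraries (-0.31, limma adjusted p = 0.00521). Rfx5, a subunit of the factor on class II and class I promoters, named after its values were seen, averaged 988 ± 90.8 in Sox11 libraries and 1187 ± 90.6 in GFP libraries (-0.27, limma adjusted p = 0.0275). Rfx5 missed the threshold, with an adjusted p in limma of up to 0.0644, when GFP 1, GFP 5, Sox11 3 or Sox11 7 was left out. Nlrc5, the class I transactivator, named after its values were seen, had 42.6 to 126 in Sox11 libraries and 26.4 to 65.7 in GFP libraries (0.77, limma adjusted p = 0.118).

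Of 22 interferon-induced genes, limma found 9 higher, where 9.65% of all genes were higher, and 0 lower, with 0 lower at an unadjusted p under 0.05. This list, like the others, was chosen with earlier results of these data known, so its count is a description. All 22 had a log2 fold change above 0, and the median was 0.84, against -0.01 over all genes. In columns 1 to 3, 19 of the 22 were above 0, with a median of 0.39. It was 21 of the 22 without GFP 5 and with the division of column numbers as a covariate. With a block over the 3 column numbers that the groups share, 21 were above 0 and 0 passed. edgeR found 9 higher (10.3% of all genes), limma-voom 10 (10.2%) and DESeq2 11 (12.1%), and each found 0 lower. Iigp1, an interferon-induced GTPase gene, had 496, 416, 349, 404 and 629 normalized counts in Sox11 1, 2, 3, 6 and 7, against 227, 248, 228, 158 and 139 in GFP 1, 3, 4, 5 and 6. The groups did not overlap, and the log2 fold change was 1.20 (SE 0.19, limma adjusted p = 0.00181). Cxcl10, a chemokine gene, averaged 85.1 ± 57.8 in Sox11 libraries and 13.4 ± 7.09 in GFP libraries (2.44, limma adjusted p = 0.0138). Mx1, an antiviral GTPase gene, had 8.47 to 53.8 in Sox11 libraries and 1.04 to 9.21 in GFP libraries (2.35, limma adjusted p = 0.0127). The number past the threshold was 14 without GFP 3, where 9.23% of all genes were higher, and 5 or 6 without GFP 4, GFP 6, Sox11 1, Sox11 2 or Sox11 3. It was 1 of 22 in columns 1 to 3, where 3.46% of all genes were higher, and 12 of 22 in columns 4 and above, where 7.27% were. Summed over the list, Sox11 1, 2, 3, 6 and 7 had 10712, 7549, 7852, 6013 and 8300 normalized counts, against 6012, 8028, 4929, 3587 and 4093 in GFP 1, 3, 4, 5 and 6. GFP 3 lay within the Sox11 range.

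**Figure D5:**
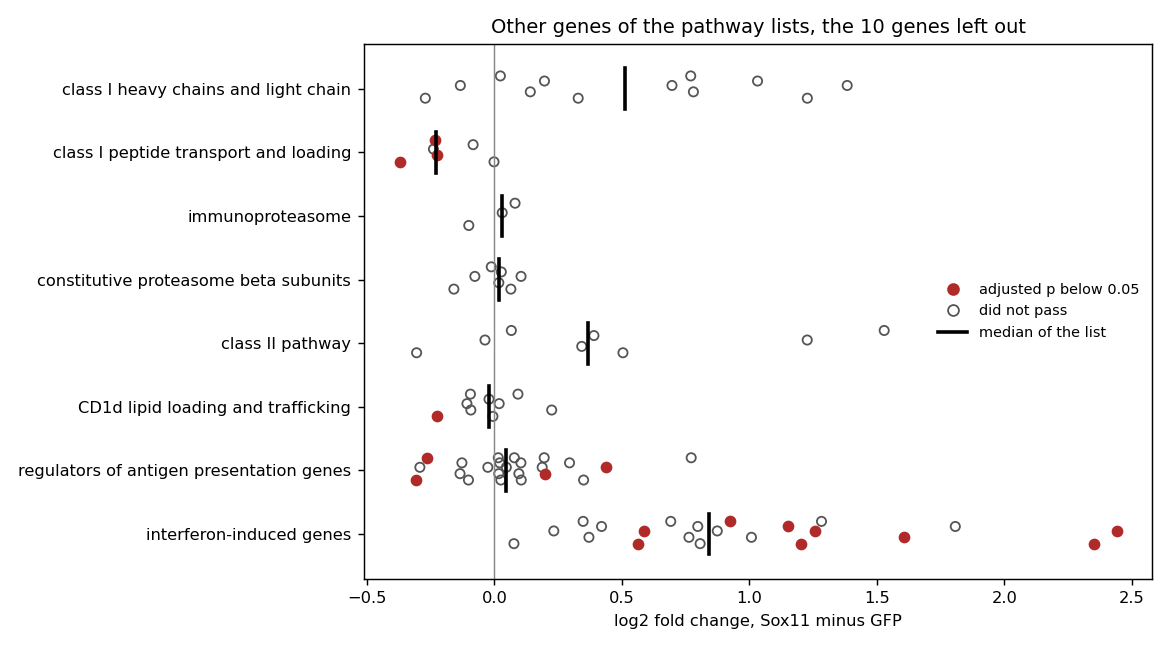
Log2 fold changes (Sox11 minus GFP, x axis) of the other tested genes of 8 pathway lists, 1 point per gene; filled points passed an adjusted p of 0.05 in limma and bars mark list medians. In these 10 libraries as deposited, all 22 interferon-induced genes lie above 0, 9 of them filled. The 6 loading genes lie at or below 0, 3 of them filled. In columns 1 to 3 alone, 19 of the 22 were above 0. Of the 6 loading genes, 1 was above 0 in 7 alternatives, TMM scaling among them.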

How the data were processed

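Libraries of the dentate gyrus of 10 mice, 5 per group, were made with a stranded mRNA kit, per the labels' protocols. Per the submitters' processing notes, the tools included cutadapt 1.9.1, STAR 2.5.2a, featureCounts 1.5.1 and DESeq2 1.12.3, with the build GRCm38. The deposited table holds a signal, gene counts that the authors divided by a size factor per library. Dividing by the smallest step gave whole reads for 100% of values within 0.01. Columns were assigned to groups by name, and their numbers do not match the sample titles. The labels say only that the mice are separate.

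The main test was limma 3.58.1 (trend and robust) on log2(normalized count + 1) for genes with a mean of at least 10, with Benjamini-Hochberg adjustment over 17007 genes and a threshold of 0.05. Fold changes are on that scale, which understates changes of low genes. Alternatives on the recovered reads were limma-voom, DESeq2 1.42.0 and edgeR 4.0.16. The scripts were tested on simulated data. The 10 genes and all lists were chosen with earlier results of these data known. Named genes are the 10, the 3 tested genes of lowest p in each list, those past the threshold in the class I, loading, proteasome and class II lists, the chromosomal neighbours of Cd1d1 and the 5 genes most like it by each measure, 1 of which is not reported here.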

Additional observations from a re-analysis of the deposited data

Results flagged for a closer look

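In 82 groups of 5 libraries, 2 groups for each of 41 genes, 7 groups held a library whose gap to the nearest other exceeded 0.71 of the group's range, the critical value of Dixon's test. Chance gives about 1 in 20 groups, and genes that vary together are flagged together. Sox11 6 was low for 4 genes. It had 1702 normalized counts of H2-K1, where the other Sox11 libraries had 2270 to 2452. It had 2105 of H2-D1, where the others had 3069 to 3206. It had 77.9 of Psmb9, where the others had 116 to 129, and 284 of H2-Q4, where the others had 442 to 491. Sox11 1 was high for the interferon-induced genes Irf7 and Oasl2. It had 435 of Irf7, where the other Sox11 libraries had 140 to 222, and 1085 of Oasl2, where they had 376 to 576. GFP 4 was high for Canx, at 22460 normalized counts, where the other GFP libraries had 19469 to 20080.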

How the results depend on the processing

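The direction of each result with a main call was kept under every alternative run. Over all genes, limma called 1642 higher and 1592 lower, and leaving out each library in turn gave 1280 to 1569 and 1175 to 1699. In columns 1 to 3 alone, with fewer libraries, it called 589 and 424. With a block over the 3 column numbers that the groups share, which uses 6 libraries, it called 40 and 2. Of the other pathway genes, 11 were higher and 6 lower, with 7 to 19 and 3 to 6 when a library was left out, 2 and 2 in columns 1 to 3, 18 higher in columns 4 and above, and 0 and 0 with the block. Those 19 higher calls came without GFP 3, the 7 without GFP 6 or Sox11 3, and the 3 lower calls without Sox11 3. Of the 10 antigen presentation genes, 2 were higher and 1 lower, with 1 to 4 and 1 to 1 when a library was left out. The count of higher genes was 1, Cd1d1, in columns 1 to 3, with the block, with limma without trend and robust and with no filter on low values. In columns 4 and above it was 2, H2-K1 and Cd1d1, without Tap1. The count of lower genes was 0 in columns 1 to 3 and with the block. Whether the column numbers pair the libraries is not known from the labels. Deviations of same-numbered libraries correlated at 0.194, 0.0675 and 0.415 for numbers 1, 3 and 6. These values cannot decide it, because libraries of different numbers were not compared in this way. TMM or quantile scaling left the median log2 fold change of all genes between -0.01 and 0.00. Depth limits Mx1, Cd1d1 in GFP libraries and H2-Q2, which rest on few reads. Removing the group and column means together in the correlations was chosen after seeing the data.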

Other observations

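H2-Q1, a nonclassical class I gene named after its values were seen, was nearly present or absent by library. It had 89.3 and 120 normalized counts in Sox11 2 and Sox11 3, against 0 to 1.58 in the other 3 Sox11 libraries. It had 272 and 259 in GFP 1 and GFP 3, against 0 to 1.10 in the other 3 GFP libraries. These 4 libraries were also the highest of their groups in the summed meningeal and fibroblast markers, with 19651 and 17256 in Sox11 2 and Sox11 3, and 21448 and 36940 in GFP 1 and GFP 3. The relation of the 2 patterns was not tested. H2-Q1 did not differ detectably between the groups, with a log2 fold change of -0.27 and an SE of 2.21.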
